A study of Mus musculus with 18 samples.

Results

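Collagens are the main structural proteins of the extracellular matrix, and the genes described here are the mouse genes whose array symbol is Col, a type number, the letter a and a chain number. The probe table of the array held 41 such symbols among 19057 genes with a single symbol. The samples were cells bright for GFP, sorted from enzymatically dissociated heart ventricles of embryos that carried the Wt1GFP knock-in allele, in which GFP marks cells with an active Wt1 locus. Wt1 is a transcription factor gene used to mark the epicardium, the epithelial sheet that covers the heart. There were 6 groups, E11.5, E12.5, E13.5, E14.5, E15.5 and E16.5, each with 3 arrays, 18 in all, and by the labels the groups differed only in embryonic stage. All groups shared the knock-in allele and the bright gate, the zygosity was not given in the sources used here, and no other gate or genotype entered. GFP was read from the Wt1 locus itself, so the gate admits any cell in which that locus is active. Nothing in the labels ties the 3 arrays of a stage to separate litters or pools, so the p-values reflect only how far these samples differ from each other, and that spread may be technical.

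A collagen molecule is a triple helix of 3 chains, folded and modified in the endoplasmic reticulum, secreted, and assembled outside the cell into fibrils, sheets or filaments. Fibrillar collagens such as types I, III and V form the tension-bearing fibres of connective tissue, type IV collagen forms the sheet-like network of basement membranes, and types XV and XVIII are attached to basement membranes. The remaining types include beaded filaments (type VI), fibril-associated collagens with interrupted helices (types IX, XIV and XVI), short-chain network collagens (type VIII) and transmembrane collagens. In the developing heart the epicardium rests on a basement membrane, and cells that leave it enter a matrix-rich space beneath and can become fibroblasts and mural cells.

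Some collagens are built from chains of a gene pair, and the promoters of 3 such pairs are shown. The genes of each pair changed in the same direction over the time course. So did Col6a1 with Col6a2 and Col4a3 with Col4a4, which are not shown. The falls of Col4a5 and Col4a6 were not called on their second probes. The sequences are RefSeq windows of the GRCm38.p6 assembly, 300 bases long and running with the direction of the gene. A window was found for 33 of the 41 genes. Col4a1 (chr8:11312777-11313076, minus strand) and Col4a2 (chr8:11312555-11312854, plus strand) are transcribed away from each other, and the capitals mark the 78 bases (chr8:11312777-11312854) that both windows contain, on opposite strands.
Col4a1: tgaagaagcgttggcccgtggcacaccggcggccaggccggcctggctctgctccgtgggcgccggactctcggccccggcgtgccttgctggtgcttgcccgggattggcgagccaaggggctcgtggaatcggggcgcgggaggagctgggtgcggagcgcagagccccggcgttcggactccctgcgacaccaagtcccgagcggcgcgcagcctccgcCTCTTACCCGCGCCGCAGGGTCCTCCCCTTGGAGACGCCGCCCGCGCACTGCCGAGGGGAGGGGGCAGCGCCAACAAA
Col4a2: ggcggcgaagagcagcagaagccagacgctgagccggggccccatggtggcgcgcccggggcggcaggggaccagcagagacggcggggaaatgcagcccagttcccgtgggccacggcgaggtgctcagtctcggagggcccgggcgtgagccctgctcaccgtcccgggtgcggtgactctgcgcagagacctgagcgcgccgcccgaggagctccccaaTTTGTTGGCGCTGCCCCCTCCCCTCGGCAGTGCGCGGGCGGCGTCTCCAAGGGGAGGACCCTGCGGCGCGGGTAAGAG
The shared stretch had a GC content of 73.1%, with 1 GC box and 0 CCAAT and TATA boxes. Col4a5 (chrX:141475169-141475468, plus strand) and Col4a6 (chrX:141474027-141474326, minus strand) also face away from each other, with 842 bases between their windows. Col8a1 (chr16:57754688-57754987, minus strand) and Col8a2 (chr4:126286544-126286843, plus strand) encode the chains of type VIII collagen and lie on different chromosomes. In these 4 sequences the capitals mark every GC box or CCAAT box, with overlapping matches run together.
Col4a5: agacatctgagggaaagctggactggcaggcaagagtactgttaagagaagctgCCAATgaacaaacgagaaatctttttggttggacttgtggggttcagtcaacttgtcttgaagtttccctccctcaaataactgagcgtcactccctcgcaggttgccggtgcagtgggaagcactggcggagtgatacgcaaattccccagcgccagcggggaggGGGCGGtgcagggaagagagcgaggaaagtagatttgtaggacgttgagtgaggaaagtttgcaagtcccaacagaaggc
Col4a6: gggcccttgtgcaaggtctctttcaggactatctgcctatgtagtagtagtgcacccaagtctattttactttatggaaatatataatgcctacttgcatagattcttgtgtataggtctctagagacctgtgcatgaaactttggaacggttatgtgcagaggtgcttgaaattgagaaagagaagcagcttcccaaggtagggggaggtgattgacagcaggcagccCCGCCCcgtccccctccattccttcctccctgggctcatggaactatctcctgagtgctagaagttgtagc
Col8a1: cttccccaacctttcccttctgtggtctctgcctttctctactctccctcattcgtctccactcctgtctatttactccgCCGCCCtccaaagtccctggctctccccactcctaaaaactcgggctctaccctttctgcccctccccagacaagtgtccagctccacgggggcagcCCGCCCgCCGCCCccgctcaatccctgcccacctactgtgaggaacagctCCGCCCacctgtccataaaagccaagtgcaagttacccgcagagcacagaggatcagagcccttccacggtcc
Col8a2: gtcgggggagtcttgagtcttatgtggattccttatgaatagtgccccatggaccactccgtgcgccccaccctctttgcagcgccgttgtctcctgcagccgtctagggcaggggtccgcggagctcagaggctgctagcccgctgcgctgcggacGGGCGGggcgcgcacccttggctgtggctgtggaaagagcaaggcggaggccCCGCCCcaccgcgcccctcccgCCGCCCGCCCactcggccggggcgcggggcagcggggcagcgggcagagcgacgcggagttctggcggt
Matches to GGGCGG (the GC box), CCAAT (the CCAAT box) and TATAAA (the TATA box) were counted on both strands, so that a match on the other strand appears as the reverse complement. Col8a1 and Col8a2 each held 4 GC boxes and 0 CCAAT boxes, Col4a5 held 1 of each, and Col4a6 held 1 GC box. A GC box was present in 23 of the 36 collagen windows (63.9%) and in 35.7% of all 32851 windows, a CCAAT box in 13 (36.1%) against 37.4%, and a TATA box in 5 (13.9%) against 13.6%. These are matches of letters in a short window and were not tied to any measurement of binding.

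Values are log2 of the authors' deposited probe intensities, and a background floor was set at 109 intensity units, 6.77 on the log2 scale. A gene was measured where a probe exceeded the floor on at least 3 arrays, and its brightest such probe represented it. Of the 41 collagen genes 30 were measured, 18 of them above the floor on all 18 arrays and 12 on only some. These were 10 of 11 fibrillar genes, 8 of 8 basement membrane genes and 12 of 22 others. The 11 genes not measured exceeded the floor on 0 to 2 arrays and were Col10a1, Col11a1, Col13a1, Col19a1, Col22a1, Col23a1, Col28a1, Col6a4, Col6a6, Col9a1 and Col9a3. A gene bright at only some stages can pass this filter because of those stages, and the same holds for the 10834 genes against which the counts are read. Levels of different probes are on different scales, so only changes are compared between genes. Symbols such as Col6a3 and Col12a1 were not analysed here. The lowest correlation between arrays of a stage was 0.971, and the number of arrays limits the precision.

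Over the whole span, 13 of the 30 measured collagen genes rose and 4 fell between E11.5 and E16.5 (limma, adjusted p under 0.05). Over all 10834 genes 34.7% were called, 15.9% higher and 18.7% lower. Differences of at least 2-fold were called higher for 10 collagen genes, against 4.18% of all genes, and lower for 1, against 1.21%. The median log2 difference was 0.20 for the measured collagen genes and -0.03 for all genes. By class, 4 of 10 fibrillar genes rose and 0 fell, 5 of 8 basement membrane genes rose and 2 fell, and 4 of 12 other genes rose and 2 fell. The class medians were 0.21 for fibrillar, 0.29 for basement membrane and 0.20 for other genes. They include genes near the floor, such as the fibrillar Col11a2, Col24a1 and Col5a3, and so do not show that the classes behaved alike. The differences ran from -0.21 to 1.83 for fibrillar, -0.45 to 3.45 for basement membrane and -1.62 to 2.01 for other genes. By class in that order, rises of at least 2-fold were called for 4, 3 and 3 genes, and the 2-fold fall was in the other class. The arrays of the end stages did not overlap for 20 of the 30 genes, against 49.5% of all genes, and all 17 called genes were among them. A test over all 6 stages called 20 of the 30 genes, where 40.8% of all genes were called, and 4 of them, Col16a1, Col18a1, Col27a1 and Col9a2, were not called between the end stages. The call over all stages was lost for Col18a1 without E13.5 replicate 2, E14.5 replicate 2 or replicate 2 or 3 of E16.5 (adjusted p from 0.0505 to 0.0679) and on its second probe (0.252). It was lost for Col27a1 without E12.5 replicate 3 (0.0577), with other choices of probe (0.29 and 0.967) or a stricter filter (0.0544), and for Col3a1 without E11.5 replicate 2 or 3 (0.0747 and 0.0675). On the second brightest probe it was also lost for Col26a1 (0.29), Col4a5 (0.0889) and Col4a6 (0.811). Of the 30 genes 9 were called in none of the 6 tests.

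**Figure D1:**
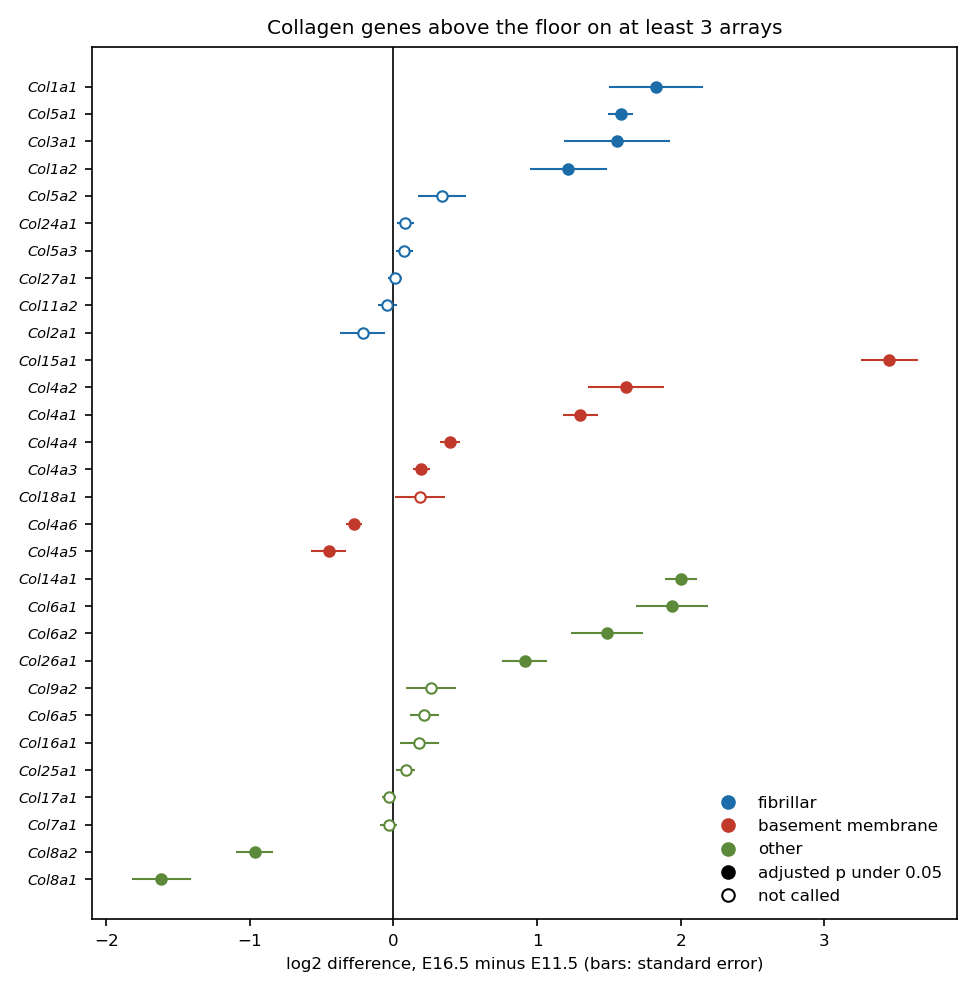
Log2 difference between E16.5 and E11.5 for the 30 measured collagen genes, grouped by class, with the standard error of the limma fit as bars and filled points where the adjusted p was under 0.05. Col15a1 lies farthest to the right at 3.45, and Col8a1 farthest to the left at -1.62.

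Among basement membrane collagens, Col15a1, whose product links basement membranes to nearby fibrils, had the largest rise of all members. It read 6.86, 6.73 and 6.72 on the E11.5 arrays, with 1 of 3 above the floor, and 10.30, 10.45 and 9.92 on the E16.5 arrays. It had already reached 8.65, 9.22 and 9.34 at E13.5 and 9.50, 9.59 and 9.58 at E14.5. The groups did not overlap, and the difference was 3.45 ± 0.20 on the log2 scale (SE), 11-fold, with an adjusted p of 1.33e-08. The E11.5 mean of 6.77 lay at the floor, so its level at that stage is not resolved from background. Col18a1, which encodes the related basement membrane collagen whose end fragment is endostatin, followed another course. Its arrays read 12.05, 12.15 and 12.18 at E11.5, 11.65, 11.60 and 11.70 at E14.5 and 12.16, 12.41 and 12.36 at E16.5. The end stages overlapped and differed by 0.18 ± 0.18 (adjusted p = 0.47), while the step from E14.5 to E16.5 was 0.66 ± 0.18 (adjusted p = 0.0194). That late call was lost when E14.5 replicate 1 or 2 was left out, and likewise replicate 2 or 3 of E16.5, where the step was 0.66, 0.63, 0.61 and 0.63 with adjusted p from 0.0535 to 0.0706, and on the second probe it was 0.48 (adjusted p = 0.0966).

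The 6 chains of type IV collagen are encoded by 3 pairs of neighbouring genes, with 0 protein-coding genes between the members of a pair in the RefSeq order. Col4a1 and Col4a2 encode the 2 chains of the type IV collagen found in nearly all basement membranes. Col4a1 read 11.58, 11.61 and 11.87 at E11.5 and 12.88, 13.05 and 13.06 at E16.5, a difference of 1.30 ± 0.12 (adjusted p = 1.13e-06). Col4a2 read 10.28, 10.28 and 10.45 at E11.5 and 11.85, 11.96 and 12.06 at E16.5, a difference of 1.62 ± 0.27 (adjusted p = 0.000236). For both genes all 3 E16.5 arrays lay above all 3 E11.5 arrays, and both had stepped up by E13.5, by 0.82 and 0.998. The Col4a2 step to E13.5 was not called when replicate 1 or 2 of E11.5, or replicate 2 or 3 of E13.5, was left out, at 0.97, 0.97, 0.86 and 0.71 with adjusted p from 0.0569 to 0.0956. These are the genes whose promoter windows share 78 bases.

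Col4a3 and Col4a4 encode chains of the type IV network of kidney and lung basement membranes, and both were near the floor. Col4a4 did not reach the floor at E11.5 on any of 3 arrays and read 6.93, 7.08 and 7.19 at E16.5, at least 1.23-fold higher (adjusted p = 0.000526). Col4a3 was also under the floor at E11.5 and read 6.76, 6.87 and 6.85 at E16.5, at least 1.04-fold higher (adjusted p = 0.0209). Leaving out replicate 3 of E11.5, or replicate 2 or 3 of E16.5, ended the Col4a3 call, with adjusted p of 0.102, 0.0752 and 0.0646. Col4a5 and Col4a6, on the X chromosome, moved the other way. Col4a5 read 9.08, 9.0 and 9.30 at E11.5 and 8.72, 8.46 and 8.85 at E16.5, a difference of -0.45 ± 0.12 (adjusted p = 0.00966). Leaving out replicate 3 of E11.5 or replicate 2 of E16.5, the Col4a5 difference was -0.36 or -0.34, with adjusted p of 0.0524 and 0.0553. Its second probe, above the floor on all 18 arrays, gave -0.33 and was not called (adjusted p = 0.161). Col4a6 read 6.95, 7.03 and 7.08 at E11.5 and lay under the floor at E16.5, at least 1.19-fold lower (adjusted p = 0.00108). Its second probe gave -0.03, with an adjusted p of 0.674, and exceeded the floor on 3 arrays only.

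**Figure D2:**
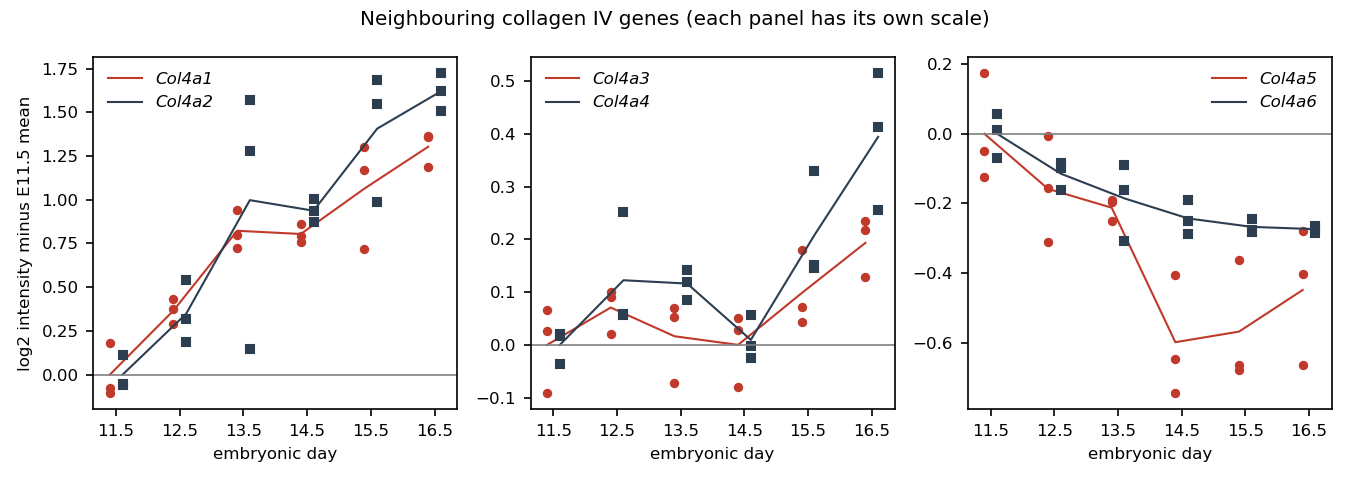
Log2 intensity of the 6 type IV collagen genes on every array, by embryonic day, less the gene's E11.5 mean, with lines through the stage means and a separate vertical scale for each neighbouring pair. Col4a1 and Col4a2 end above the line at 0, by 1.30 and 1.62, and Col4a5 ends below it, at -0.45. Col4a3 and Col4a4 end above the line and Col4a6 below it, but Col4a3 and Col4a4 at E11.5 and Col4a6 at E16.5 lie under the background floor, so their distances from the line are not resolved.

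Among the fibrillar genes, the chains of types I and III and 1 of 3 type V chains rose. Col1a1, the major chain of type I collagen, read 9.91, 9.79 and 10.13 at E11.5 and 11.81, 11.998 and 11.52 at E16.5. The stages did not overlap, and the difference was 1.83 ± 0.33 (3.55-fold, adjusted p = 0.000472). Its partner chain Col1a2 read 8.21, 7.71 and 7.75 at E11.5 and 9.46, 9.05 and 8.81 at E16.5, a difference of 1.22 ± 0.27 (adjusted p = 0.00236). Col3a1, the type III chain found with type I in distensible tissue, read 8.19, 7.40 and 7.60 at E11.5 and 9.94, 8.85 and 9.08 at E16.5. It rose by 1.56 ± 0.37 (adjusted p = 0.00381), and its second probe gave 1.47. In both Col1a2 and Col3a1 the lowest E16.5 array still lay above the highest E11.5 array.

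Col5a1 encodes a chain of type V collagen, which sits inside type I fibrils and limits their diameter. It read 10.61, 10.42 and 10.84 at E11.5, 11.79, 11.79 and 11.80 at E12.5, and 12.10, 12.33 and 12.19 at E16.5. All arrays from E12.5 on lay above all E11.5 arrays, and the whole rise was 1.58 ± 0.09 (adjusted p = 1.29e-08). Its partner Col5a2 read 7.43, 7.09 and 7.51 at E11.5 and 7.56, 7.36 and 8.12 at E16.5, which overlapped and differed by 0.34 ± 0.17 (adjusted p = 0.144). Its other kept probe, above the floor on 17 arrays, gave 0.65. Col5a2 is the neighbour of Col3a1. Col27a1, a fibrillar chain of cartilage, was called only by the test over all 6 stages and from E11.5 to E13.5, where it rose by 0.16 ± 0.05 (adjusted p = 0.0347), and its other probes differed by -0.02 and 0.03. That step lost its call when any of 5 arrays of those stages was left out, E11.5 replicates 1 and 3 and E13.5 replicates 1, 2 and 3, at 0.14 to 0.17 with adjusted p from 0.0506 to 0.136. Col2a1, the main cartilage collagen, ran from 6.65 to 7.69 over the 18 arrays, with its highest value on E13.5 replicate 3. It exceeded the floor on every array from E11.5 to E14.5 and on 0 at E15.5 and E16.5 (test over all stages, adjusted p = 0.122). Its other kept probes exceeded the floor on 15 and 11 arrays. Col11a2, Col24a1 and Col5a3 stayed between 6.58 and 6.92. These 4 fibrillar genes were called in none of the 6 tests.

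Type VI collagen forms beaded filaments around cells, and its genes Col6a1 and Col6a2 lie next to each other. Col6a1 read 9.18, 9.13 and 9.10 at E11.5 and 11.01, 11.19 and 11.04 at E16.5, a difference of 1.94 ± 0.25 (adjusted p = 2.75e-05). Col6a2 read 7.31, 7.23 and 7.17 at E11.5 and 8.74, 8.80 and 8.63 at E16.5, a difference of 1.49 ± 0.25 (adjusted p = 0.000309). Both ended well clear of their E11.5 range, and the other kept probes of these genes gave 1.80 and 0.52 for Col6a1 and 0.46 for Col6a2. Col6a5, a further type VI chain, exceeded the floor on 4 arrays and on 0 of the 3 at E11.5. At E16.5 it read 6.67, 6.84 and 7.22, at least 1.10-fold higher, which was not called (adjusted p = 0.108). It was called without the first arrays of E15.5 and E16.5 (adjusted p = 0.00881), which drops the E16.5 array under the floor. Col14a1, the fibril-associated collagen XIV, which binds the surface of type I fibrils, read 6.93, 6.93 and 6.94 at E11.5 and 8.80, 9.01 and 9.01 at E16.5. Its arrays climbed to 7.77 to 7.82 at E12.5 and to 8.13 to 8.71 at E13.5, and the whole difference was 2.01 ± 0.11 (4.02-fold, adjusted p = 1.13e-08). Its second probe, also above the floor on all 18 arrays, gave 1.04.

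Col8a1 and Col8a2, the chains of the short-chain network collagen of vessel walls and the cornea, both fell. Col8a1 read 9.12, 9.14 and 9.31 at E11.5 and 7.52, 7.39 and 7.80 at E16.5, a difference of -1.62 ± 0.20 (3.07-fold lower, adjusted p = 2.2e-05). Col8a2 read 9.02, 9.08 and 9.03 at E11.5 and 7.89, 8.01 and 8.32 at E16.5, a difference of -0.97 ± 0.13 (adjusted p = 4.36e-05). All E16.5 arrays of both genes lay under all E11.5 arrays, and their second probes also fell, by 1.15 and 0.23 log2 units. Col8a1 fell by 1.03 log2 units up to E13.5 (adjusted p = 0.00286), and its step from E14.5 to E16.5 was -0.60 and not called (adjusted p = 0.0564). The difference between these steps, late minus early, was 0.43 and not called (adjusted p = 0.392). The steps of Col8a2 to E13.5, to E14.5 and to E16.5 were -0.31, -0.38 and -0.27, and none was called alone on all 18 arrays. Without the first arrays of E15.5 and E16.5, the steps of Col8a2 to E13.5 and to E14.5 were called (adjusted p = 0.0292 and 0.0207), and without E13.5 replicate 1 the step to E14.5 was (-0.49, adjusted p = 0.0212).

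Col26a1, also known as Emid2, read 8.11, 8.33 and 8.09 at E11.5, 9.48, 9.93 and 9.61 at E13.5, and 8.92, 9.11 and 9.24 at E16.5. Its E13.5 arrays were the highest of these 3 stages, and E16.5 still lay 0.92 ± 0.16 above E11.5 (adjusted p = 0.000334). A dimmer second probe, above the floor on 11 arrays, showed 0.07 (adjusted p = 0.282), so the call rests on 1 probe. Col9a2, a chain of cartilage collagen IX, read 7.11, 7.12 and 7.17 at E11.5, 7.44, 8.28 and 8.29 at E13.5, and 7.33, 7.50 and 7.36 at E16.5. It rose by 0.87 ± 0.18 to E13.5 (adjusted p = 0.00298) and did not differ by test between the end stages (0.26, adjusted p = 0.282). Col16a1, a fibril-associated collagen, read 10.15, 9.76 and 10.16 at E11.5 and 10.85, 10.83 and 10.67 at E12.5, its highest stage by mean. It read 10.66, 10.54 and 10.44 at E13.5, and 10.16, 10.02 and 9.96 at E14.5. From E11.5 to E13.5 it rose by 0.53 (adjusted p = 0.0134), and from E13.5 to E14.5 it fell by 0.50 log2 units (adjusted p = 0.0468). The rise was not called without E11.5 replicate 2 (0.40, adjusted p = 0.072), and the fall lost its call in 14 of the 18 fits that each left out 1 array. The transmembrane chains Col17a1 and Col25a1, the anchoring fibril chain Col7a1 and Col6a5 were called in none of the tests on all arrays and ran from 6.59 to 7.22 over all arrays.

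**Figure D3:**
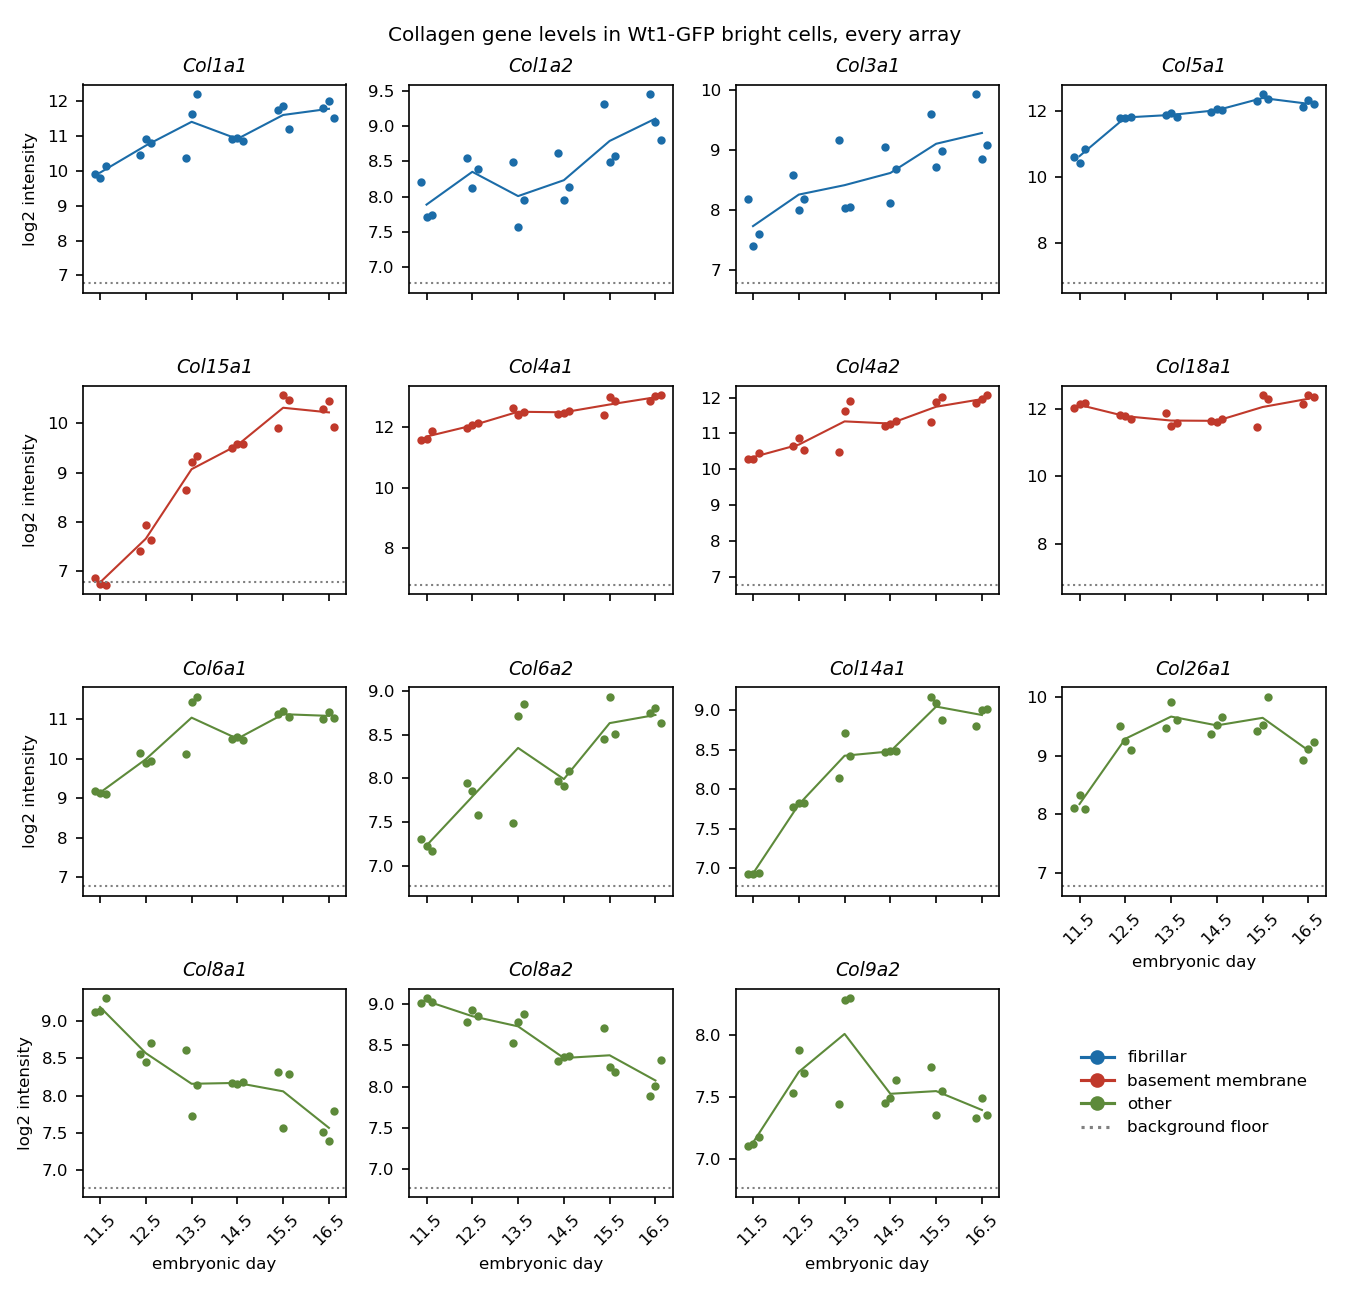
Log2 intensity of 15 collagen genes on each of the 18 arrays (points, replicates 1 to 3 from left to right within a stage) by embryonic day, with a line through the stage means, colours for the class and a dotted line at the background floor. Col15a1 climbs from the floor, Col8a1 and Col8a2 decline, and Col1a1, Col6a1 and Col6a2 have a low first array at E13.5.

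The timing of the rises was read from 3 intervals, which share arrays at E13.5 and E14.5 and lie within the whole span. From E11.5 to E13.5, 12 of 30 collagen genes rose and 2 fell, where 17.3% of all genes were called, 8.57% higher and 8.74% lower. The rising genes were 3 fibrillar, 3 basement membrane and 6 others, and the falling ones, Col4a6 and Col8a1, were 1 basement membrane and 1 other. The Col4a6 step of -0.19 was not called when replicate 2 or 3 of E11.5, or replicate 1 or 2 of E13.5, was left out, at -0.18, -0.16, -0.12 and -0.20 with adjusted p from 0.0571 to 0.112. Without E15.5 replicate 1, 4 collagen genes were called lower. From E13.5 to E14.5 only Col16a1 was called, lower, where 4.57% of all genes were called, 1.87% higher and 2.7% lower.

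From E14.5 to E16.5, 7 of 30 rose and 0 fell, where 17.7% of all genes were called, 9.87% higher and 7.84% lower. These were Col15a1, Col18a1, Col4a1, Col4a3 and Col4a4 of the basement membrane class, the fibrillar Col1a2 and the fibril-associated Col14a1. The late steps were 0.67 for Col15a1, 0.66 for Col18a1, 0.50 for Col4a1, 0.87 for Col1a2 and 0.46 for Col14a1. Col4a3 and Col4a4 did not reach the floor at E14.5, and by E16.5 they stood higher by at least 1.04-fold and at least 1.23-fold. The count moved with single arrays, to 4 without E14.5 replicate 1 or 3, to 3 without E14.5 replicate 2 or E16.5 replicate 2 or 3, and to 11 without E13.5 replicate 1. Over all genes, 1918 were called on all arrays. Leaving out 1 E14.5 array gave 1103 to 1235, and leaving out E16.5 replicate 2 or 3 gave 1190 or 1053. The late call of Col15a1 was lost without any 1 E14.5 array or E16.5 replicate 1 or 2 (0.55 to 0.68, adjusted p from 0.0719 to 0.125). That of Col1a2 was lost when replicate 2 or 3 of E14.5, or replicate 1 or 2 of E16.5, was left out (0.70 to 0.90, adjusted p from 0.0814 to 0.141). Col4a3 lost it without any 1 E14.5 array, E12.5 replicate 2 or E16.5 replicate 2 or 3 (adjusted p from 0.0504 to 0.154). The late step of Col14a1 was not called on its second probe (0.11, adjusted p = 0.692) or with the mean of its probes (0.28, adjusted p = 0.102). Without E16.5 replicate 3, Col14a1 and Col4a1 also stood just past the threshold, at 0.43 and 0.47 with adjusted p of 0.0509 and 0.0502. The Col4a4 step kept its call in every fit that left out 1 array.

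The difference between the late and the early 2-day step was tested directly, and it was called for 7 of 30 collagen genes, 1 higher and 6 lower, where 13% of all genes were called, 6.75% higher and 6.28% lower. Col5a1 gained 1.25 from E11.5 to E13.5 and 0.19 from E14.5 to E16.5, a difference of -1.05 ± 0.13 (adjusted p = 9.63e-05). Col14a1 gained 1.49 and then 0.46, and Col15a1 gained 2.30 and then 0.67. Only 1 of 3 E11.5 arrays of Col15a1 exceeded the floor, so its early gain and the difference of -1.63 are not resolved in size. Col26a1 turned from 1.496 to -0.43, and Col9a2 from 0.87 to -0.13. Col18a1 was the gene with the opposite order, at -0.47 early and 0.66 late, a difference of 1.12 ± 0.25 (adjusted p = 0.00744). On its second probe, above the floor on all 18 arrays, that difference was 0.65 and not called (adjusted p = 0.131). For Col6a1, 1.90 early and 0.58 late, the difference of -1.32 was not called without E13.5 replicate 2 or 3, E14.5 replicate 2 or E16.5 replicate 3 (-1.12, -1.05, -1.30 and -1.30, adjusted p from 0.0525 to 0.061). Without E13.5 replicate 1, 10 collagen genes were called lower, while 2402 of all genes were called in either direction, against 1411 on all arrays. Without E16.5 replicate 1, 3 collagen genes were called higher.

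**Figure D4:**
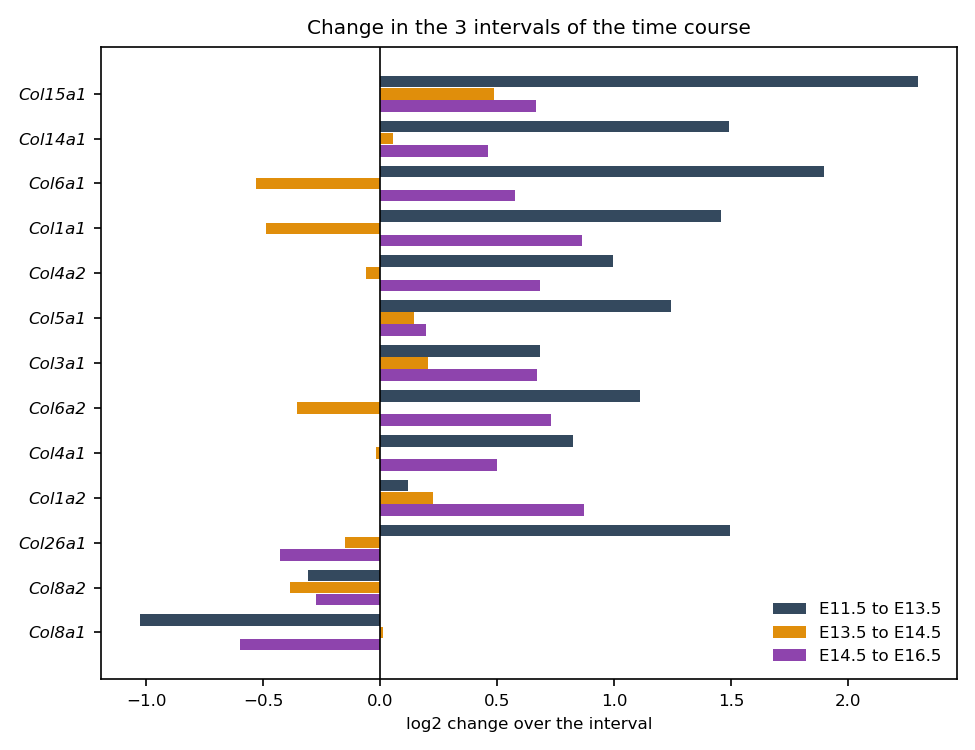
Log2 change of the stage mean over 3 successive intervals, E11.5 to E13.5, E13.5 to E14.5 and E14.5 to E16.5, for the 13 collagen genes that changed by more than 0.9 over the whole span, as bars from 0. The first interval holds the longest bar for 11 of the 13 genes, though for Col3a1 only by 0.69 against 0.67, the middle one for Col8a2 (-0.38) and the last for Col1a2 (0.87). The same count was not made over all genes, and the middle interval is a single day while the others are 2 days. Col15a1 starts at the floor. E13.5 replicate 1 lay over 1 log2 unit from the mean of the other E13.5 arrays for Col1a1, Col3a1, Col4a2, Col6a1 and Col6a2.

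The array E13.5 replicate 1 stood apart from the other E13.5 arrays in several collagen genes. It read 10.38 for Col1a1 against 11.63 and 12.20, and 10.11 for Col6a1 against 11.43 and 11.56. Relative to the mean of the other E13.5 arrays it differed by -1.29 for Col6a2, -1.28 for Col4a2 and -0.84 for Col9a2, and by 1.14 for Col3a1. Of the 30 genes 5 differed by over 1 log2 unit (Col1a1, Col3a1, Col4a2, Col6a1 and Col6a2), as did 1.94% of all genes. Without this array, 7 collagen genes were lower at E14.5 than at E13.5 rather than 1. These were Col1a1 at -1.0, Col6a1 at -0.99, Col6a2 at -0.79, Col9a2 at -0.76, Col4a2 and Col8a2 at -0.49, and Col16a1. Over all genes 2373 were then called in that step, against 495 with it.

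A separate regularity followed the replicate number. Of the 30 measured collagen genes, only Col1a2 and Col3a1 read highest on replicate 1 at 6 of 6 stages. They lay 0.30 to 0.78 and 0.49 to 1.14 above the mean of the other arrays of the stage. Over all genes 4.32% were highest on replicate 1 at every stage, so the pattern is not particular to collagen genes. Col1a1, the partner of Col1a2 in type I collagen, was highest on replicate 1 at 0 of 6 stages. With replicate number as a block the whole-span adjusted p became 3.04e-06 for Col1a2 and 9.35e-07 for Col3a1. The labels do not say what a replicate number stands for.

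**Figure D5:**
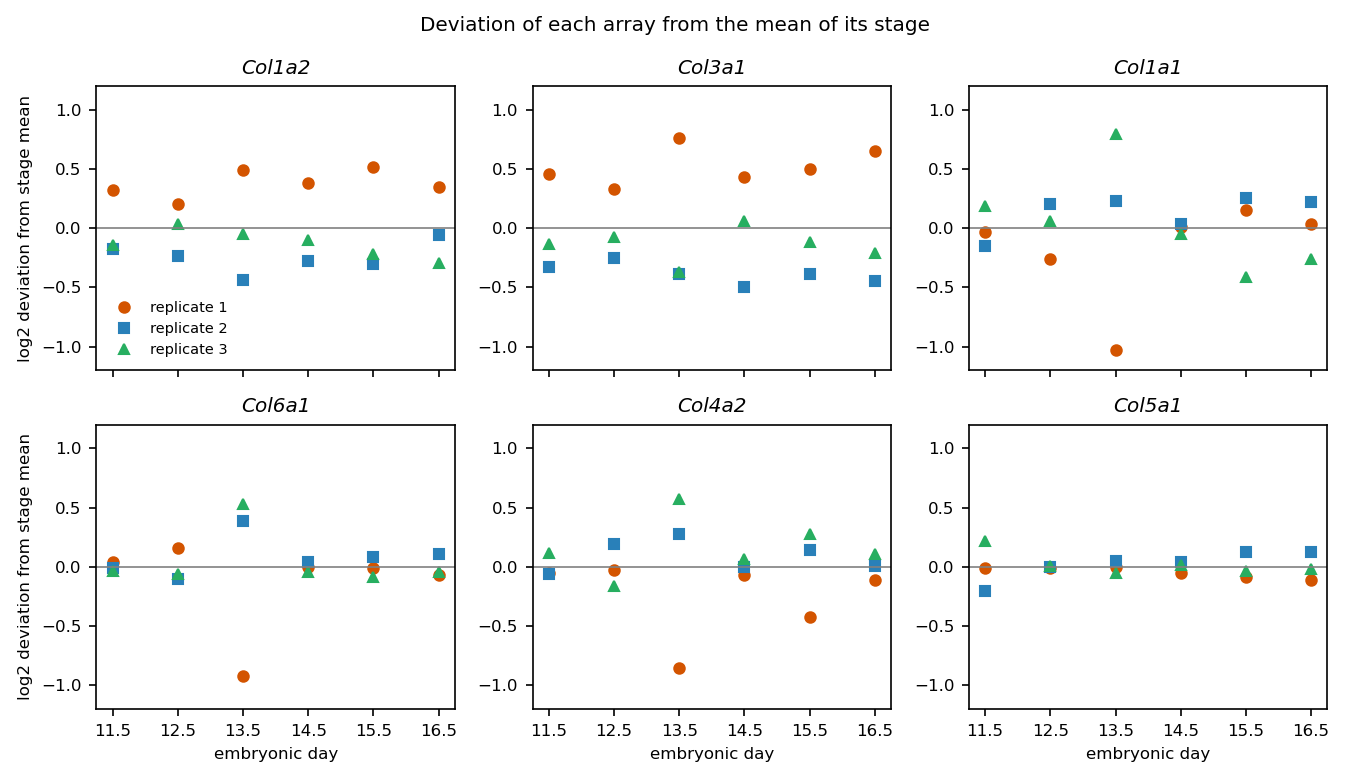
Deviation of each array from the mean of its stage (log2) by embryonic day for 6 collagen genes, with a colour and symbol for each replicate number. Replicate 1 lies highest at every stage for Col1a2 and Col3a1, and at E13.5 it lies lowest for Col1a1, Col6a1 and Col4a2.

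Collagen chains depend on enzymes and chaperones for folding and secretion, and 26 such genes were listed. Of the 23 measured, 7 rose and 4 fell between E11.5 and E16.5 (median log2 difference 0.17, against -0.03 for all genes), where 15.9% of all genes rose and 18.7% fell. Plod1, a lysyl hydroxylase of the helix, read 7.28, 7.29 and 7.25 at E11.5 and 8.07, 7.89 and 8.05 at E16.5 and rose by 0.73 ± 0.09 (adjusted p = 1.41e-05). P3h4, a partner of the lysyl hydroxylase complex, read 9.24, 9.07 and 9.20 and then 7.99, 8.30 and 8.81 and fell by 0.80 log2 units (adjusted p = 0.00624). Sparc, a collagen-binding matrix protein, differed by 0.79 (adjusted p = 0.0349), but leaving out any 1 array of E11.5 or E16.5 gave 0.74 to 0.83 with adjusted p from 0.0653 to 0.0958. Of 13 genes for procollagen cleavage and cross-linking 5 were measured, and 2 rose, against 15.9% of all genes. With the replicate number as a block, Pcolce, an enhancer of procollagen cleavage, was called higher as well (0.46, adjusted p = 0.0179, against 0.0528 without the block). Of the folding and secretion genes the block added P3h1 and Sec24d as higher and P4hb as lower (adjusted p = 0.045, 0.0174 and 0.0248), which made 9 higher and 5 lower. The shares of 15.9% and 18.7% are from the fit without the block, so the counts with the block have no matching share of all genes here. Lox, the lysyl oxidase that cross-links collagen and elastin, read 9.62, 9.01 and 9.46 at E11.5 and 10.72, 11.13 and 11.53 at E16.5, a difference of 1.76 ± 0.22 (adjusted p = 1.8e-05).

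Of 10 collagen receptor genes 7 were measured, of which 2 rose and 3 fell, against 15.9% and 18.7% of all genes. Ddr1, a receptor tyrosine kinase for collagen, read 9.77, 9.86 and 9.47 at E11.5 and 8.56, 8.63 and 8.14 at E16.5, a difference of -1.25 ± 0.26 (adjusted p = 0.00155). The integrin chains Itga1 and Itga11, which bind collagen together with Itgb1, were both called lower, while Itgb1 was called higher (0.25, adjusted p = 0.0278). Itga1 fell by 0.63 log2 units (adjusted p = 0.000224). Itga11 read 7.42, 7.42 and 7.71 at E11.5 and 6.68, 6.74 and 6.91 at E16.5 (adjusted p = 0.00158), where 2 of 3 arrays lay under the floor of 6.77, so the size of its fall was not resolved. Itga2, another collagen-binding integrin chain, did not reach the floor at E11.5 and read 7.40, 7.91 and 7.71 at E16.5, at least 1.87-fold higher (adjusted p = 0.0082). The end stages did not overlap for Ddr1, Itga1, Itga11, Itga2 or Itgb1.

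Markers of other cell types were counted over the same span, in which 15.9% of all genes rose and 18.7% fell. Of 17 measured endothelial markers 15 rose and 0 fell, and their mean log2 level went from 7.30 to 7.39 on the E11.5 arrays to 10.19 to 10.48 on the E16.5 arrays. Of 14 fibroblast markers 7 rose and 1 fell, from 8.97 to 9.07 up to 9.51 to 9.75. Of 14 epicardial markers 4 rose and 5 fell, with levels of 8.90 to 9.08 at E11.5, 7.99 to 8.07 at E14.5 and 8.88 to 9.24 at E16.5, and all 14 exceeded the floor on every array of E11.5 and E16.5. Counts of rising against falling markers between the end stages were 3 and 1 of 11 for smooth muscle and pericytes, 5 and 1 of 8 for erythroid cells, 2 and 0 of 3 for leukocytes, 0 and 2 of 2 for cartilage, and 1 and 0 of 2 for neural crest and Schwann cells. Of the 12 listed leukocyte markers Ptprc, which defines leukocytes, Tyrobp, Lyz2, C1qa, C1qb and C1qc exceeded the floor on 0 arrays and Fcer1g and Cx3cr1 on 1. The 3 measured ones, Csf1r, Laptm5 and Aif1, exceeded it on 16, 15 and 13, and Cd68 was not among the single-symbol probes. Of the cartilage markers Acan, Matn1, Matn3, Comp, Snorc, Cnmd and Ucma exceeded it on 0 arrays, Hapln1 on 6 and Sox9 on 18. In bulk RNA, fewer cells of a type and less RNA per cell cannot be told apart, and the part of these shifts in the collagen differences was not tested.

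Cardiomyocyte markers, of which 5 of 20 rose and 1 fell over the span, differed between arrays of E13.5 and of the late stages. At E13.5 their mean level was 9.69, 8.97 and 9.98, above the 8.53 to 8.89 of E11.5. The part of this shift in the step to E13.5 was not tested. Their mean level was 10.89 on the first E15.5 array and 10.68 on the first E16.5 array, while the remaining E15.5 and E16.5 arrays had 8.77 to 9.09 and the E14.5 arrays had 10.44 to 10.63. Without those first arrays of E15.5 and E16.5, all 17 collagen genes called between E11.5 and E16.5 were still called in the same direction. Col6a5 (adjusted p = 0.00881) and Col18a1 (0.26, adjusted p = 0.0473) were then called higher as well. The late step of Col1a2 (0.70, adjusted p = 0.065) and the test of Col3a1 over all stages (adjusted p = 0.0704) were no longer called. The calls gained in the other tests were the fall of Col18a1 to E13.5 (-0.47, adjusted p = 0.00142), the falls of Col8a2 to E13.5 and to E14.5 given above, and the late minus early difference of Col4a4 (adjusted p = 0.024). Col6a5 gained calls for the late step (adjusted p = 0.0118), late minus early (0.0358) and all stages (0.0196). For Col6a5 the E16.5 arrays left in that fit read 6.84 and 7.22, and the one left out lay under the floor. The E14.5 arrays were alike in this, so the steps into and out of E14.5 and the cardiomyocyte marker level cannot be told apart there.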

How the data were processed

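RNA from sorted cells was amplified and hybridised to Illumina bead arrays, per the labels' protocols. The values are the authors' deposited probe intensities on a linear scale, and the submitters' processing notes name GenomeStudio 2011.1. After sorting, the 18 columns were within 2.04 units of each other, so the deposited intensities share 1 distribution, which hides any global change. For the normalization and the background step the sources used here give no method. The values ran from 83.8 to 17358 with a median of 104. A second table with 36 columns, 18 of signal and 18 of detection p-values, was not used because no column name matches a label, so the design's detection p was replaced by a floor taken from the values.

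The floor was the mode of the intensities (99.2) plus the normal quantile of a 0.01 tail times the SD below the mode (0.060 log2 units). Of 45281 probes 20009 were kept. The platform annotation gave 34885 probes 1 symbol, 18 several and 10378 none, and 34807 matched RefSeq (GRCm38.p6) with 0 symbols changed. The files name no build, so only promoter windows carry coordinates.

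Log2 values were fitted with limma 3.58.1 (lmFit, contrasts.fit, eBayes, 12 residual degrees of freedom) in R 4.3.3, with 1 mean per stage. P-values were Benjamini-Hochberg adjusted over 10834 genes, and "called" means under 0.05. "At least N-fold" sets the bright stage's mean against the higher of the floor and the dim arrays' own values, where all 3 dim arrays lay under the floor. The fit was tested on simulated data.

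Deviations of same-numbered arrays from their stage means correlated at 0.25, 0.29 and 0.21 between E16.5 and E11.5. Replicate numbers, from the titles, were therefore treated as pairing those arrays, though arrays of different number were not compared. Replicates 1 and 2 correlated at 0.27 and 0.26 from E11.5 to E13.5, 0.27 and 0.40 from E13.5 to E14.5, and 0.34 and 0.26 from E14.5 to E16.5. In those steps replicate 3 gave 0.02, -0.02 and 0.06. The main tests of all comparisons were fitted without the block. Members, lists and tests were chosen with earlier results of these data known. Values on every array are given for genes called with a difference of at least 1 over the whole span or with the largest change of their class in a window, and up to 8 related genes with the largest called difference are named. Related genes whose call was added by the block, and Itgb1 as an integrin partner, are named as well. Values given for other collagen genes were chosen after they were seen. Alternatives changed the probe, the filter, the scaling, the background step, array weights, the block, the stages in the fit and single arrays.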

Additional observations from a re-analysis of the deposited data

Results flagged for a closer look

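For 7 collagen genes the change from E14.5 to E16.5 differed from the change from E11.5 to E13.5 by a direct test of the difference in limma, adjusted over all genes. In 6 of them the late step was the lower, and the values below are late minus early on the log2 scale. The value was -1.93 for Col26a1, which rose early and had a late step of -0.43 that was not called (adjusted p = 0.0744), and -1.63 for Col15a1, whose E11.5 level, with 1 of 3 arrays above the floor, leaves that size unresolved. It was -1.32 for Col6a1, -1.05 for Col5a1, -1.03 for Col14a1 and -1.004 for Col9a2. For Col18a1 it was 1.12, the only one of the 7 in which the late step was the higher, and on its second probe it was 0.65 and not called (adjusted p = 0.131). The 4 stages hold 3 arrays each. The mean level of cardiomyocyte markers was 8.97 to 9.98 at E13.5, the end of the early step. It was 10.44 to 10.63 on all E14.5 arrays, the starting point of the late step. Its part in these differences was not tested. The call for Col26a1 rests on 1 probe, and a dimmer probe gave -0.06 (adjusted p = 0.65).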

How the results depend on the processing

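Of 74 results for single genes 45 kept their call under every alternative that gave a value, out of 29 alternatives in all, and 0 changed direction. Leaving out 1 array at a time gave 19 to 21 collagen genes called over all 6 stages (3800 to 5930 of all genes). It gave 12 to 14 higher and 3 to 5 lower over the whole span (3150 to 4329 of all genes), and 10 to 12 higher and 1 to 4 lower from E11.5 to E13.5 (1249 to 3253 of all genes). From E13.5 to E14.5 it gave 0 higher and 0 to 7 lower (37 to 2373 of all genes), and from E14.5 to E16.5 it gave 3 to 11 higher and 0 to 1 lower (1053 to 2522 of all genes). For the late step minus the early step it gave 1 to 3 higher and 5 to 10 lower (1058 to 2402 of all genes). The highest count of all genes from E13.5 to E14.5 came without E13.5 replicate 1 and the lowest without E13.5 replicate 2. The cause of the moves below was not tested, except that fits on fewer stages have fewer samples and a changed filter changes the genes tested.

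With array weights 7558 genes were called over all stages. From E11.5 to E13.5 weights gave 4 collagen genes lower and 4130 genes in all, from E13.5 to E14.5 8 lower and 3716 in all, and from E14.5 to E16.5 13 higher, 4 lower and 3764 in all. For late minus early they gave 4 higher, 10 lower and 3396 in all. The second brightest probe gave 2 collagen genes lower over the whole span, 1 lower from E11.5 to E13.5 and 0 lower from E13.5 to E14.5. The mean of all kept probes gave 2 lower from E13.5 to E14.5 and 2 higher for late minus early. Without a filter on dim probes, which tested 19057 genes, 0 collagen genes were lower from E13.5 to E14.5 and 320 genes were called. Keeping only probes above the floor on all 18 arrays tested 7667 genes, 18 of them collagen genes. Col15a1, Col4a3, Col4a4 and Col4a6 were then not tested. This filter gave 1 lower from E11.5 to E13.5 and 4 higher from E14.5 to E16.5. Background correction by normexp gave 0 lower from E13.5 to E14.5 at an offset of 16, and from E14.5 to E16.5 it gave 2 lower at 16 and 1 lower at 50. Fits on only the stages compared gave 6 higher from E11.5 to E13.5 (1070 genes in all), 0 lower from E13.5 to E14.5 (25 in all) and 3 lower from E14.5 to E16.5.

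With the replicate block, 2 collagen genes were lower from E13.5 to E14.5 (803 genes in all), 1 was lower from E14.5 to E16.5, and 2 were higher for late minus early. Col3a1, not called in either step without the block, was then called from E11.5 to E13.5 (0.69, adjusted p = 0.0018) and from E14.5 to E16.5 (0.67, adjusted p = 0.00269), and in the late step Col4a2 was called higher (adjusted p = 0.0474) and Col8a1 lower (adjusted p = 0.0208). Replicate numbers did not pair the arrays of those steps by the check used, because of replicate 3, while replicates 1 and 2 correlated at 0.26 to 0.40. Over the whole span, where the numbers were treated as pairing the arrays, the block changed no call of the collagen genes. It added those of Pcolce, P4hb, P3h1 and Sec24d. Leaving aside the first arrays of both E15.5 and E16.5, 4 were lower from E11.5 to E13.5, 2 were lower from E13.5 to E14.5 (1062 genes in all) and 3 were higher for late minus early. Cyclic loess moved the share of higher genes among those called over the whole span from 46.0% to 57.0%, while the median of all genes moved by under 0.1 in every setting. Genes near the floor, Col4a3, Col4a4 and Col4a6 among them, are limited by signal over background.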
